A study of Mus musculus with 2 samples.

Results

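The matrix metalloproteinases (Mmp), the ADAMTS proteases (Adamts), the ADAMTS-like proteins (Adamtsl) and the tissue inhibitors of metalloproteinases (Timp) are the genes described here. They were chosen by symbol alone, as all genes named Mmp, Adamts, Adamtsl or Timp followed by a number, and 51 of the 43346 Ensembl genes of the tables met that rule. They comprised 16 secreted Mmp genes, 7 membrane-bound Mmp genes, 19 Adamts genes, 5 Adamtsl genes and 4 Timp genes. No measured value enters that rule, but the rule was set with earlier results of these data known.

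Mmp proteins are zinc-dependent proteases that are made as inactive precursors and cleave collagens, other matrix proteins and surface proteins. Adamts proteases combine a metalloproteinase domain with thrombospondin repeats and cleave proteoglycans, procollagens and von Willebrand factor, while Adamtsl proteins share the repeats but lack the protease domain and bind the microfibril network. Timp proteins block the active site of many of these enzymes, and in the embryonic limb this system remodels the matrix around condensing cartilage, between the digits and along growing vessels.

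RNA was taken from limbs of healthy embryonic mice of the strain B6NCrl at day 13.5 of gestation (E13.5), with male and female embryos pooled. The labels give 1 group of 2 libraries, numbered as biological replicates 1 and 2. Each library was made from 10 ng of RNA longer than 200 nt with ERCC spike-ins, and whether forelimbs, hindlimbs or both were taken is not stated in the labels. The libraries come from separate tissue samples under a shared donor entry, so their independence rests on the replicate numbers alone. With a single group there is no treated, mutant or later sample to compare, and 2 libraries allow no p below 0.5 in an exact two-sided sign-flip test, so no p is given. The questions are which of these genes the limb expressed, how they stood to each other, and whether the libraries gave the same picture. Values with ± are the mean and SD of both libraries (n = 2).

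Replicate 1 held 31253053 expected counts on Ensembl genes and replicate 2 held 42301448, with 2.11% and 2.07% of all counts on spike-ins. Over 17441 genes the common biological coefficient of variation from edgeR, the spread between libraries beyond counting error, was 5.19%. The tissue label was checked against markers: at least 1 TPM (the deposited abundance scaled by length and to the same total in each library) was reached in both libraries by 7 of 7 limb mesenchyme, 5 of 5 chondrocyte, 4 of 4 muscle, 4 of 4 ectoderm, 4 of 4 endothelial, 5 of 5 macrophage and 4 of 4 erythroid markers. Of all protein-coding genes 61% reached that level. Whole tissue was measured, so that fewer cells of a type and less RNA per cell cannot be told apart for any level below. The libraries differed in a list of 7 liver genes, which summed to 52.9 TPM in replicate 1 and 7.47 TPM in replicate 2. Single markers of other lists differed as well. Among the limb mesenchyme markers, Tbx5 had 25.2 TPM in replicate 1 and 36.5 TPM in replicate 2. Tbx4 (24.4 and 20.9 TPM) and Pitx1 (90.4 and 73.8 TPM) went the other way. The part of these differences in the values below was not tested.

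The limb held most of these genes at low to moderate levels and a few at high levels. A level of 1 TPM or more in both libraries, called detected from here on, was reached by 35 of the 51 members, where 34.6% of all Ensembl genes and 61% of protein-coding genes reached it. The median over the 51 members was 3.31 TPM, beside 0.11 TPM over all genes with a symbol. These sets are unlike: all members but Mmp1a are typed as protein coding, as against 21474 of the 43346 Ensembl genes. A median over protein-coding genes alone was not computed. The subfamilies differed: 18 of 19 Adamts, 5 of 5 Adamtsl, 3 of 4 Timp and 5 of 7 membrane-bound Mmp genes were detected, but 4 of 16 secreted Mmp genes. At least 10 TPM was reached by 15 members and at least 100 TPM by 3, which were Mmp2, Mmp11 and Mmp14.

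**Figure D1:**
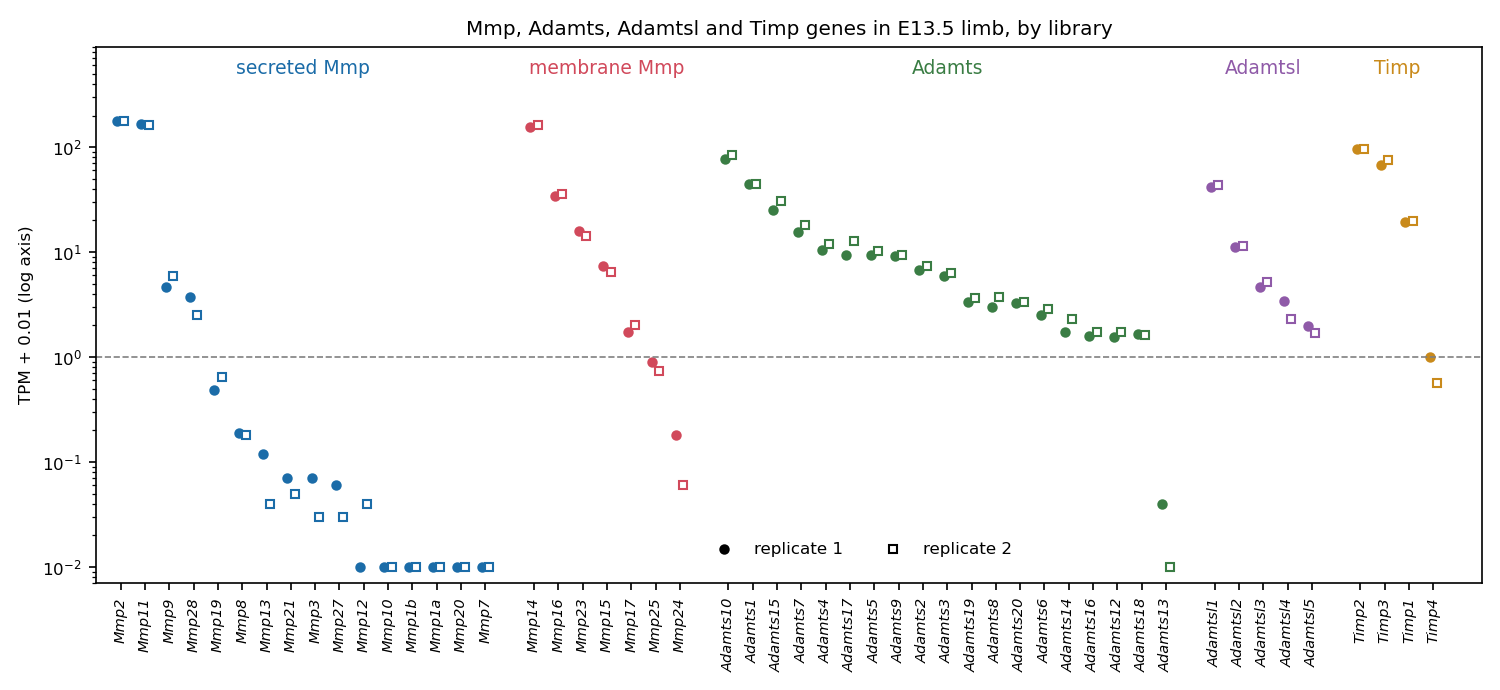
Level of each of the 51 genes in replicate 1 (filled circles) and replicate 2 (open squares), in TPM + 0.01 on a log axis, grouped by subfamily and sorted by mean. The dashed line marks 1 TPM, and Mmp2, Mmp11 and Mmp14 stand above 100 TPM while 5 secreted Mmp genes have 0 counts in both libraries.

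Summed levels show where the transcripts of the family lay. Secreted Mmp genes summed to 351 TPM in replicate 1 and 347 TPM in replicate 2, and Mmp2 with Mmp11 made up nearly all of it. Membrane-bound Mmp genes summed to 217 and 220 TPM, of which Mmp14 held 72.7% in the mean. Adamts genes summed to 231 and 257 TPM and were the most evenly spread at gene level, their highest member Adamts10 holding 33.1%. Timp genes summed to 185 and 190 TPM, and Adamtsl genes to 63.3 and 64.2 TPM. The Timp sum was 0.33 of the sum over all Mmp genes. On transcripts annotated as protein coding alone, the mean sums were 336 TPM for secreted Mmp and 196 TPM for membrane-bound Mmp genes. They were 186 TPM for Timp, 157 TPM for Adamts and 33.9 TPM for Adamtsl genes. Adamts thus stood above membrane-bound Mmp and Timp at gene level but below both on coding transcripts.

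Among the promoters of these genes, the ones shown here set the 3 highest members with a sequence in the RefSeq promoter table (GRCm38.p6, the assembly mm10) beside 3 members of a gene cluster on chromosome 9 in which no gene was detected. The table held 36 of the 51 members. Each line gives the last 120 bases before the RefSeq start site, 5′ to 3′ on the gene's strand. Capitals mark matches on either strand to 4 motifs. The AP-1 motif, an element bound by Fos and Jun proteins, was spelled TGANTCA. The TATA box was spelled TATAAA, the Sp1 motif GGGCGG and the Runx motif TGTGGT. None of the matches in capitals overlapped one of another motif. The regions are chr14:54431478-54431597 on the plus strand for Mmp14, chr10:75932503-75932622 on the minus strand for Mmp11, chr11:118355412-118355531 on the minus strand for Timp2, and, all on the plus strand, chr9:7272394-7272513 for Mmp13, chr9:7445702-7445821 for Mmp3 and chr9:7502222-7502341 for Mmp10.
Mmp14: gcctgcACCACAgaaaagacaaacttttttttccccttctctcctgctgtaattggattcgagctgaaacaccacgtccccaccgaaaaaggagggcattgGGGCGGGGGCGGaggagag
Mmp11: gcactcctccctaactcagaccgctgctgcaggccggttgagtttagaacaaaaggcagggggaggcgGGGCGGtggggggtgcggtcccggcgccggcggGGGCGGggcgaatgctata
Timp2: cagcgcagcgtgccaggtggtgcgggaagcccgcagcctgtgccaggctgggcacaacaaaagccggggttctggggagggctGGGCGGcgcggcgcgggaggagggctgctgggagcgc
Mmp13: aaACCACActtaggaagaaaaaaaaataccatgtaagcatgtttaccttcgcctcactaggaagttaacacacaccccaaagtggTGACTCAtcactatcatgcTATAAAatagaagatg
Mmp3: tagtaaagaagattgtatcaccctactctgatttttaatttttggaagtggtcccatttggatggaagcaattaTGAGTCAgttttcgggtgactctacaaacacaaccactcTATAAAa
Mmp10: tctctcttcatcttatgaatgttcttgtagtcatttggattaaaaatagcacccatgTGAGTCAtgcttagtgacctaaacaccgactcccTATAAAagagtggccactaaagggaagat

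The 3 high members held Sp1 matches and no AP-1 or TATA match in these bases, and the 3 cluster members held AP-1 and TATA matches and no Sp1 match. These 3 were picked for display from the 7 cluster promoters that hold both motifs, and Mmp12, Mmp8 and Mmp27 of the cluster hold neither. In Mmp14 the Sp1 matches began 19 and 13 bases before the start and lay side by side. In Mmp13, Mmp3 and Mmp10 the AP-1 match began 35, 46 and 63 bases before the start and the TATA match 16, 7 and 29 bases before it. The RefSeq starts of Mmp11 and Timp2 lie 3994 and 329 bases inside the genes as drawn in GENCODE M21, so their true starts were not settled here.

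Mmp2, gelatinase A, cleaves denatured collagen and basement membrane collagen and was the highest member. It lies on chromosome 8 (mm10, 92827291 to 92853420, plus strand) and had 177 TPM in replicate 1 and 176 TPM in replicate 2, from 10844 and 14298 expected counts. The authors' credibility intervals, set around posterior means of 172 TPM in both libraries, were 169 to 176 TPM and 169 to 175 TPM. The related gelatinase Mmp9, which osteoclasts and white blood cells are known to make, had 4.66 and 5.92 TPM. Mmp2 stood above Mmp9 in both libraries, by 5.04 ± 0.25 on the log2 scale of TPM + 0.1. Such within-library ratios are called past the spread where both libraries have the same sign and the mean exceeds 2 times the combined replicate SD of 500 genes of like abundance for each gene, here 0.50.

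Mmp11, stromelysin 3, is activated inside the cell by furin-like convertases and is known from mesenchyme next to remodelling epithelium. It had 165 and 162 TPM and lies on chromosome 10, where its annotated span overlaps Chchd10 on the opposite strand, a gene at 6.94 ± 0.106 TPM. Whether the counting used strand is not given in the sources used here, so the level of any member overlapped on the opposite strand is uncertain. The collagenase Mmp13, a marker of late hypertrophic cartilage and of osteoblasts, had 0.11 and 0.03 TPM from 6 and 2 expected counts. Mmp11 stood above Mmp13 by 9.95 ± 0.47 on the log2 scale of TPM + 0.1, a size that depends on the amount added because Mmp13 was near 0. Col10a1, the collagen of hypertrophic cartilage, had 1.36 and 3.61 TPM from 86 and 303 expected counts. Its log2 ratio of replicate 2 over replicate 1 on scaled counts was 1.38, over 2-fold. The median of that ratio was -0.04 in the list of hypertrophic cartilage and osteoclast markers and 0.10 in the chondrocyte list.

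Mmp28, epilysin, had 3.69 TPM in replicate 1 and 2.48 TPM in replicate 2 and was the fourth secreted Mmp gene detected. Mmp19 fell below the threshold with 0.47 and 0.64 TPM, Mmp8, the neutrophil collagenase, with 0.18 and 0.17 TPM, and Mmp21 with 2 expected counts in each library. Of 6 neutrophil markers, 2 were detected (S100a8 at 6.53 ± 0.502 TPM and S100a9 at 3.45 ± 0.933 TPM), and none was at 0 in both libraries, the list summing to 13.2 and 12.5 TPM. Of 6 markers of hypertrophic cartilage and osteoclasts, 5 were detected, the list summing to 65.7 and 62.4 TPM, and Ocstamp was the exception at 0.035 ± 0.0071 TPM. The part of these cells in the levels of Mmp8 and Mmp9 was not tested.

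Mmp14, the first membrane-type metalloproteinase (MT1-MMP), cleaves fibrillar collagen at the cell surface and activates the precursor of Mmp2. It had 157 and 161 TPM on chromosome 14 (mm10, 54431612 to 54445364, plus strand), from 8170 and 11129 expected counts. Mmp14 and its substrate Mmp2 differed by -0.15 ± 0.03 on the log2 scale, Mmp14 over Mmp2, just within the limit of 0.15, and by -0.17 in replicate 1 alone, outside it. Timp2, which binds Mmp14 and the Mmp2 precursor together at the cell surface, stood below both enzymes and past the spread, with log2 ratios of -0.73 ± 0.04 over Mmp14 and -0.88 ± 0.01 over Mmp2. The 3 components of that activation complex were thus all among the 4 highest members. Reck, a membrane-anchored inhibitor of Mmp14 that the rule does not include, had 30.1 and 29.8 TPM and stood below Mmp14, with a log2 ratio of -2.41 ± 0.04.

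At gene level the other membrane-bound enzymes formed a descending series. Mmp16 (MT3-MMP) had 33.9 and 36.1 TPM, and Mmp14 exceeded it by 2.18 ± 0.04 on the log2 scale, past the spread. Mmp23, which sits in the membrane by its amino-terminal end and lacks the usual haemopexin domain, had 15.9 and 14.3 TPM, and Mmp15 (MT2-MMP) had 7.28 and 6.39 TPM. Both lay between Mmp16 above and the glycolipid-anchored Mmp17 below, and Mmp14 exceeded Mmp15 by 4.52 ± 0.16. On coding transcripts alone Mmp23 had 7.01 and 5.88 TPM, below Mmp15 in both libraries, so the order of Mmp23 and Mmp15 depends on the transcripts counted. Mmp17 had 1.74 and 2.00 TPM, and its glycolipid-anchored relative Mmp25, known from leukocytes, had 0.88 and 0.72 TPM. These last genes did not separate, with a log2 ratio of 1.13 ± 0.32 and a limit of 1.81. Mmp24 (MT5-MMP), known from the nervous system, was lowest with 0.17 and 0.05 TPM, from 8.62 and 5.44 expected counts, and Mmp15 exceeded it by 5.10 ± 0.47. Mmp24 overlaps BC029722 on the opposite strand, which had 14.3 ± 1.11 TPM.

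Timp2 led the inhibitors with 96.6 and 95.3 TPM. Timp3, which stays bound to the matrix and is the inhibitor of Adamts4 and Adamts5, had 67.9 and 74.6 TPM. Timp1, a soluble inhibitor that acts poorly on Mmp14, had 19.5 and 19.7 TPM. The order Timp2, Timp3, Timp1 held in both libraries, each step past the spread, with log2 ratios of 0.43 ± 0.11 for Timp2 over Timp3 and 1.85 ± 0.09 for Timp3 over Timp1. On expected counts, not divided by length, Timp2 over Timp3 was 0.11 and within the spread. Timp4, known from heart, had 0.98 and 0.55 TPM from 27 and 20 expected counts, and Timp1 exceeded it by 4.56 ± 0.53. In replicate 1 it lay just under the threshold, and it was the 1 Timp gene not detected. Timp3 exceeded its target Adamts5 by 2.85 ± 0.02.

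**Figure D2:**
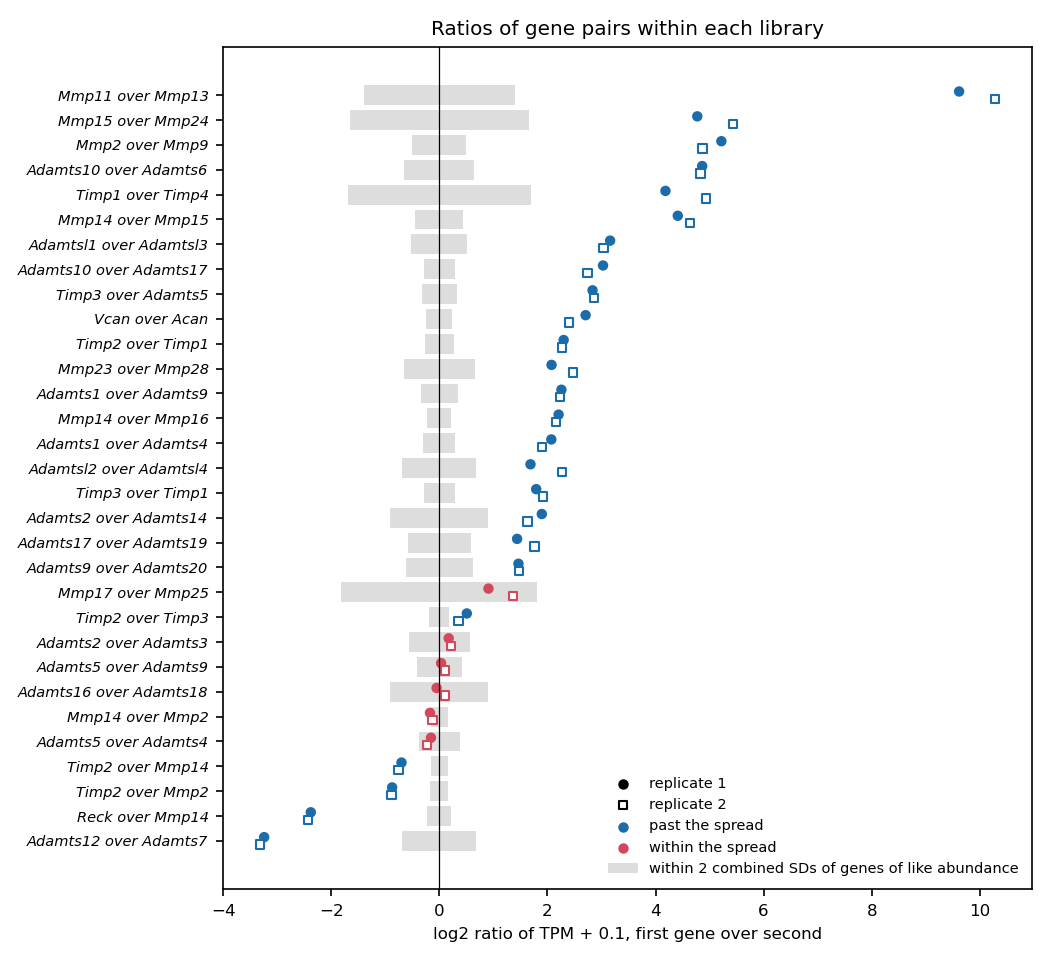
Log2 ratio of TPM + 0.1 for 31 pairs of genes, first over second, in replicate 1 (circles) and replicate 2 (squares), with grey bars for the limit of 2 combined SDs of genes of like abundance. For 25 pairs (blue) the ratio is past that limit with the same sign in both libraries, from -3.28 for Adamts12 over Adamts7 to 9.95 for Mmp11 over Mmp13, and for 6 pairs (red) it is not.

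Of the 31 pairs of relatives, enzyme and inhibitor, or enzyme and substrate, 25 met this rule. In 21 of them the first-named gene was above its partner and in 4 below. How many other gene pairs would meet the rule was not computed. The limits reflect only the spread between the libraries, so genes of unlike abundance can pass readily. The pairs were also chosen with earlier results of these data known. The count thus says little about these pairs in particular. A ratio of transcripts is not a ratio of active proteins, and no activity was measured. The other 6 pairs were not past the spread. They were Mmp14 with Mmp2, Mmp17 with Mmp25, Adamts5 with Adamts4, Adamts5 with Adamts9, Adamts2 with Adamts3 and Adamts16 with Adamts18. For these the libraries do not fix which gene is higher, which does not show that the levels are equal.

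The proteoglycan-cleaving Adamts enzymes, whose main substrates are versican and aggrecan, ranged widely. Adamts1 had 44.5 and 44.6 TPM and was the highest of them, followed by Adamts15 with 25.1 and 30.5 TPM. Adamts4 had 10.5 and 11.9 TPM, Adamts5 had 9.43 and 10.2 TPM and Adamts9 had 9.22 and 9.44 TPM. These last 3 were close in TPM: Adamts5 over Adamts4 was -0.19 ± 0.05 and Adamts5 over Adamts9 was 0.07 ± 0.05 on the log2 scale, both within the limits of 0.38 and 0.42. On expected counts, not divided by length, these ratios were 0.72 and 1.13, and on coding transcripts Adamts5 over Adamts9 was 1.89, all past the spread, so the order of the 3 depends on the unit and on the transcripts counted. Adamts1 exceeded Adamts4 by 1.99 ± 0.12 and Adamts9 by 2.24 ± 0.02 (4.02 on coding transcripts), both past the spread.

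Adamts20, mutated in the belted mouse and acting with Adamts9 and Adamts5 on versican, had 3.28 and 3.34 TPM. Adamts9 exceeded it by 1.47 ± 0.01, past the spread when all transcripts are counted, but by 0.76 and within the spread on coding transcripts alone. Adamts8 had 3.0 and 3.7 TPM and shares a span of 64.7 kb with Adamts15 on chromosome 9. Among the substrates, versican (Vcan) had 116 and 119 TPM and aggrecan (Acan), the proteoglycan of cartilage, had 17.7 and 22.5 TPM. Vcan exceeded Acan by 2.55 ± 0.22 on the log2 scale.

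Adamts10, which binds fibrillin microfibrils, had the highest gene-level value of all Adamts members with 76.4 and 84.9 TPM. Its close relative Adamts6 had 2.53 and 2.88 TPM, and Adamts10 exceeded it by 4.85 ± 0.02. Adamts17, mutated with Adamts10 in human short-stature syndromes, had 9.28 and 12.6 TPM and its paralog Adamts19 had 3.36 and 3.65 TPM. Adamts10 exceeded Adamts17 by 2.88 ± 0.20, and Adamts17 exceeded Adamts19 by 1.60 ± 0.23, both past the spread. In coding transcripts alone Adamts10 stood at 15.7 TPM, and its log2 ratios over Adamts6 and Adamts17 were 2.49 and 1.19, still past the spread.

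The procollagen peptidases cleave the amino-terminal propeptides of fibrillar collagens. Adamts2 had 6.71 and 7.35 TPM and Adamts3 had 5.94 and 6.31 TPM, a log2 ratio of 0.20 ± 0.03 within the limit of 0.57. The sign turned on expected counts (-0.27, past the spread) and on coding transcripts (-0.37, within it). Adamts14 was lower with 1.73 and 2.31 TPM, and Adamts2 exceeded it by 1.76 ± 0.19. Their substrates stood far above them, with Col3a1 at 1398 ± 88.2, Col1a1 at 904 ± 97.5 and Col1a2 at 709 ± 47.0 TPM.

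Adamts7 and Adamts12 cleave cartilage oligomeric matrix protein (Comp) and parted widely. Adamts7 had 15.4 and 18.0 TPM and Adamts12 had 1.54 and 1.71 TPM, so that Adamts12 over Adamts7 was -3.28 ± 0.06. Adamts7 overlaps Tbc1d2b on the opposite strand, a gene at 10.6 ± 0.962 TPM. Adamts16 had 1.57 and 1.73 TPM and its paralog Adamts18 had 1.63 and 1.60 TPM, and the order differed between the libraries. Adamts13, the von Willebrand factor protease made mainly in liver, was the 1 Adamts gene not detected, with 2 and 0 expected counts. Its substrate Vwf, an endothelial gene, had 5.61 ± 0.12 TPM.

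Adamtsl1 (punctin) had 42.1 and 43.5 TPM and Adamtsl2, which binds latent TGF-beta binding protein, had 11.2 and 11.5 TPM. Adamtsl3 had 4.62 and 5.21 TPM, Adamtsl4, which binds fibrillin, had 3.42 and 2.31 TPM, and Adamtsl5 had 1.95 and 1.69 TPM. Adamtsl1 exceeded Adamtsl3 by 3.10 ± 0.09 and Adamtsl2 exceeded Adamtsl4 by 1.98 ± 0.41, both past the spread. All 5 were detected, and the highest of them held 67.1% of their sum.

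For the members of the family the libraries gave nearly the same levels. A mean of 100 or more expected counts was reached by 35 members, the detected ones, of which 0 were over 2-fold apart on TMM-scaled counts, where 0.144% of all such genes were. That background is so low that 0 of 35 says little about these genes in particular. The log2 ratio of replicate 2 over replicate 1 ran between -0.39 for Mmp28 and 0.40 for Adamts14, with a median of 0.08. Mmp28 had 116 and 119 expected counts and Adamts14 had 183 and 325. Across these members the SD of the log2 ratio was 0.15, beside 0.24 over all genes with that many counts.

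Transcript tables showed that a gene's TPM was not always the level of its coding message. Of the 26 detected members with at least 2 annotated transcripts, 23 had the same leading transcript in both libraries, where 91.5% of all such genes did. For Timp1 the leader changed, with Timp1-201 at 54.2% and 44.6% of the gene's TPM and Timp1-202 at 45.8% and 55.4%, both coding. Adamtsl4 and Adamtsl5 also changed leader, both under 5 TPM. A short Adamtsl4 transcript of 288 nt led in replicate 1 with 35.3% of TPM from 4.75 expected counts, since division by a small length raises its share.

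In 4 of these 26 members, coding transcripts held under 50% of TPM in both libraries, where 10.8% of 9574 protein-coding genes tested alike did. They were Adamts10 with 19.9% and 19.0%, Adamts9 with 27.4% and 27.8%, Adamts20 with 40.9% and 49.1%, and Mmp23 with 44.1% and 41.3%. Counted by reads, which do not weigh short transcripts up, 2 members stayed under 50%, where 5.68% of genes did. Adamts10 then had 25.7% and 24.3% of its expected counts in its coding transcript and Adamts9 had 48.7% and 48.1%. The median share of TPM in coding transcripts was 76.3% over the 26 members and 91.0% over all genes tested alike, and the median share of expected counts was 89.9% and 96.3%.

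**Figure D3:**
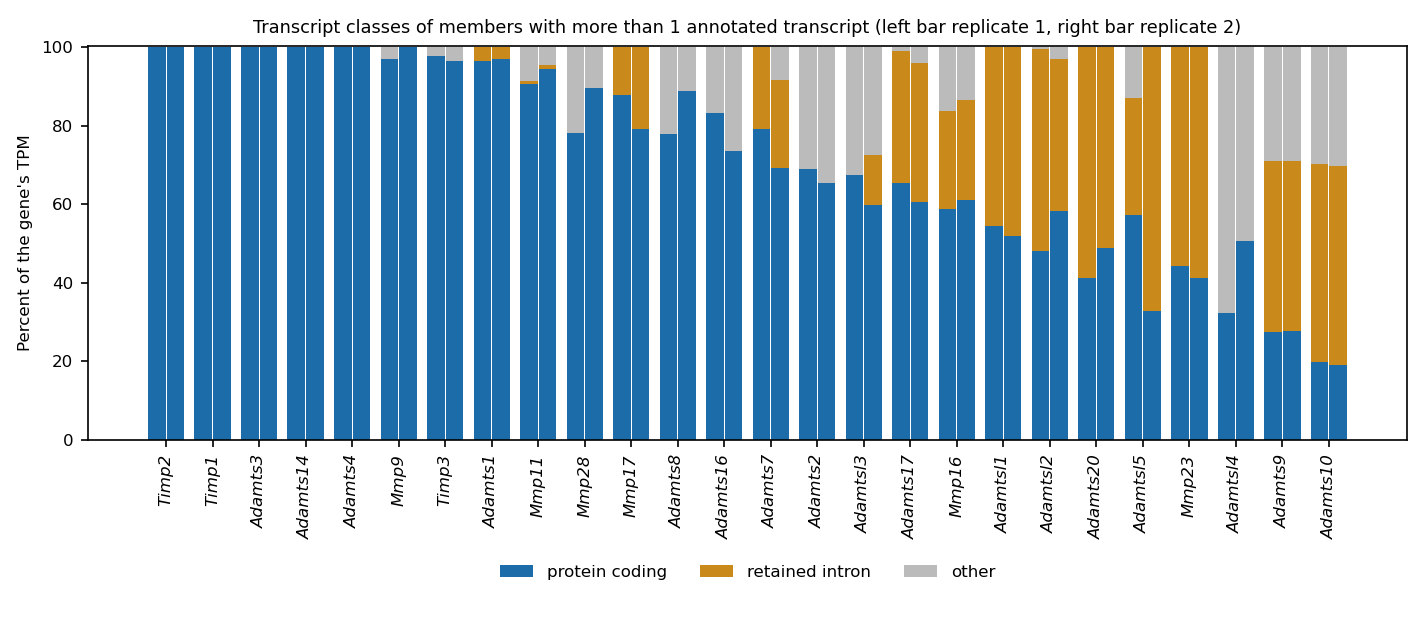
Percent of each gene's TPM in protein-coding transcripts (blue), retained-intron transcripts (orange) and all other transcripts (grey) for the 26 detected members with more than 1 annotated transcript, replicate 1 on the left and replicate 2 on the right of each pair of bars. Timp2 and Timp1 are wholly coding, and Adamts10 at the right edge is lowest with 19.9% and 19.0%.

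Adamts10 was the clearest case. Its leading transcript, Adamts10-207, is annotated as a target of nonsense-mediated decay and had 17.2 and 21 TPM. The coding transcript Adamts10-201 had 15.2 and 16.2 TPM, and retained-intron transcripts together held 50.3% and 50.7% of the gene's TPM. On coding transcripts alone Adamts10 stood at 15.7 ± 0.686 TPM and moved to rank 11 among the members, behind Timp1 at 19.6 TPM. Total RNA was sequenced, and how much of the retained-intron signal was unspliced precursor was not tested.

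Coding transcripts of Adamts9 summed to 2.58 ± 0.0636 TPM and those of Mmp23 to 6.45 ± 0.799 TPM. Adamtsl1 kept 22.8 ± 0.269 TPM and Mmp16 kept 21 ± 1.47 TPM. On coding transcripts the highest members were Mmp2, Mmp14, Mmp11, Timp2 and Timp3, with Mmp14 ahead of Mmp11 and with Timp3 in the place that Adamts10 held at gene level. By contrast 9 detected members, Mmp2 and Mmp14 among them, have 1 transcript in the tables and cannot show such a split.

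On chromosome 9, 10 Mmp genes lie together between 7272514 and 7699585 (mm10), over a span of 427 kb. In order they are Mmp13, Mmp12, Mmp1b, Mmp3, Mmp1a, Mmp10, Mmp8, Mmp27, Mmp20 and Mmp7, and they include the interstitial collagenases, the stromelysins Mmp3 and Mmp10, matrilysin (Mmp7) and the enamel protease Mmp20. None was detected: all 10 together had 19 expected counts in replicate 1 and 16 in replicate 2, and the highest value was 0.18 TPM, for Mmp8. Mmp10, Mmp1b, Mmp1a, Mmp20 and Mmp7 had 0 counts in both libraries. A count of 0 allows up to 3 counts, which for these genes is between 0.0453 TPM (Mmp20) and 0.149 TPM (Mmp7) in replicate 1, a limit that covers counting error only. Mmp3 had 2 and 1 counts, Mmp27 had 2 and 1, and Mmp12 had 0 and 1. Mmp1a is typed as a polymorphic pseudogene in GENCODE M21.

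The genes on either side were mostly expressed. Of the 4 nearest protein-coding genes on each side, 7 of 8 were detected, where 61% of all protein-coding genes were. Dcun1d5 had 92.6 ± 0.778 TPM before the cluster and Tmem123 had 60.2 ± 0.912 TPM after it. Yap1, the effector of Hippo signalling, had 39.7 ± 0.389 TPM and Birc2 had 35.7 ± 0.544 TPM. Ddi1 was at 0 in both libraries.

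**Figure D4:**
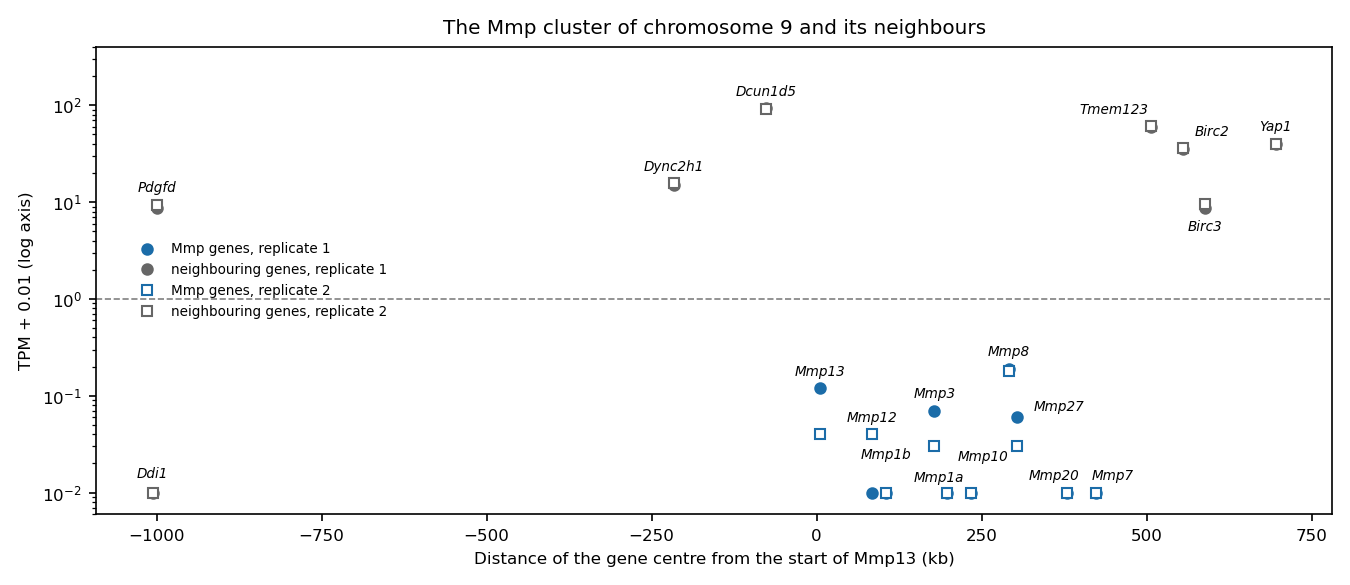
Level of the 10 Mmp genes of the chromosome 9 cluster (blue) and of the 4 nearest protein-coding genes on each side (grey), in TPM + 0.01 on a log axis, against the distance of the gene's centre from the start of Mmp13 in kb, with circles for replicate 1 and squares for replicate 2. All 10 Mmp genes lie under the dashed line at 1 TPM, and 7 of the 8 neighbours lie above it.

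Other members that lie close together did not share this state. Adamts1 and Adamts5 span 108 kb on chromosome 16 and Adamts15 and Adamts8 span 64.7 kb on chromosome 9, and all 4 were detected. Adamts13 and Adamtsl2 lie within 136 kb on chromosome 2, and the second was detected while the first was not.

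The promoters of the cluster differed in letters from those of the detected members, as a description over the 250 bases before each RefSeq start. AP-1 was found in 7 of 10 cluster promoters and TATA in 7 of 10, both in the same genes, which were Mmp13, Mmp3, Mmp10, Mmp1b, Mmp1a, Mmp20 and Mmp7. Of all 32851 promoters in the table, 6.75% held AP-1 and 12.4% held TATA. None of the 10 held Sp1, which 32.7% of all promoters held, and 3 held Runx (Mmp13, Mmp27 and Mmp1b), beside 14% of all. Among the 21 detected members with a sequence, 0 held AP-1, 2 held TATA (Adamts1 and Adamtsl2), 18 held Sp1 and 2 held Runx (Mmp14 and Mmp23).

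The CpG ratio, the count of CG pairs over that expected from the base content, had a median of 0.67 in the 21 detected members, 0.103 in the 15 members that were not detected and 0.373 over all promoters. The same sets had median GC contents of 65.2%, 42% and 52.4%. A sequence was at hand for 21 of the 35 detected members but for 15 of the 16 others, and Mmp2, the highest member, had none. The missing promoters thus lie mostly on the detected side. The 15 undetected members with a sequence include the 10 cluster genes, which arose by duplication and are not independent points. Mmp24 and Mmp25, both undetected, had ratios of 0.845 and 0.637 and so stood with the detected members. Among the detected members the 3 lowest ratios were those of Adamts12 (0.259), Adamtsl2 (0.326) and Timp1 (0.352). A match names letters and not a bound factor, and windows without a match say nothing about the factor.

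**Figure D5:**
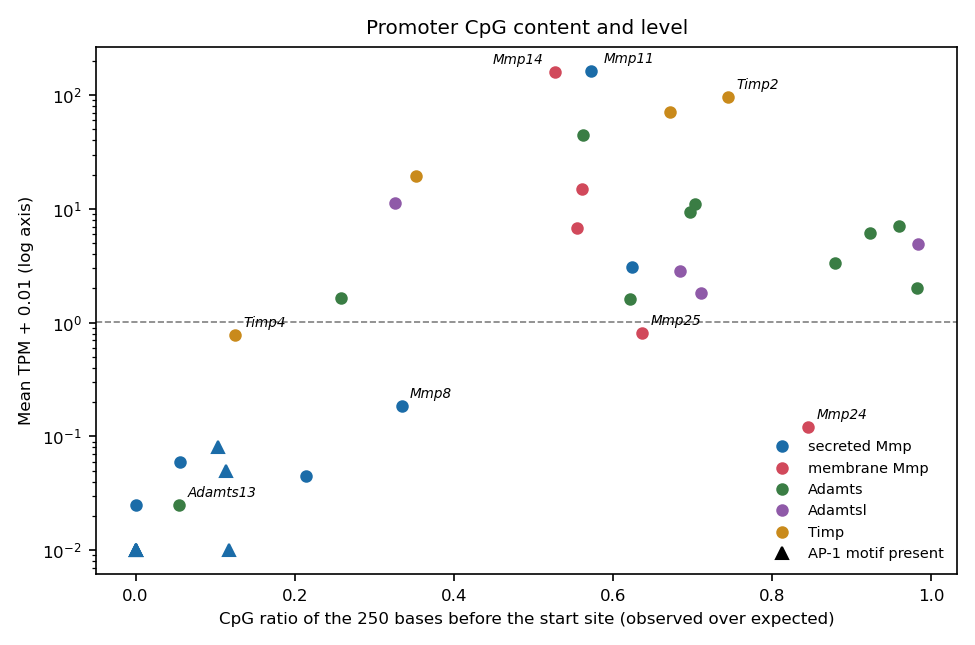
Mean level in TPM + 0.01 on a log axis against the CpG ratio of the 250 bases before the start, for the 36 members with a promoter in the RefSeq table, coloured by subfamily, with triangles for promoters that hold an AP-1 match. The 7 triangles, 4 of which coincide at a ratio of 0 (Mmp1b, Mmp1a, Mmp20 and Mmp7), all lie under 0.12 on the ratio axis and under the dashed line at 1 TPM, and Mmp24 and Mmp25 lie under the line at high ratios.

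Most of the listed genes around these proteases were detected as well. Of 20 regulators and activators 17 were detected, where 61% of all protein-coding genes were. The lists here and below were chosen with earlier results of these data known, so such counts say little about these genes in particular. The highest were Bsg (basigin, an inducer of Mmp genes) at 639 ± 6.48 TPM, Serpine2 (an inhibitor of serine proteases) at 214 ± 32.3 TPM and Lrp1 (an endocytic receptor that clears Mmp and Adamts proteins) at 103 ± 2.77 TPM. The precursor convertase Furin had 10.4 and 10.0 TPM. Plasminogen (Plg), a liver gene, had 0.40 and 0.03 TPM and so moved with the liver list between the libraries.

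Of 21 metalloproteinase relatives outside the rule 16 were detected, beside the same 61% of all protein-coding genes. Bmp1, the procollagen C-proteinase, had 67.3 ± 0.509 TPM, the sheddase Adam10 had 52.0 ± 2.43 TPM and Adam15 had 42.9 ± 1.20 TPM, while Mep1b was lowest with 0.02 ± 0.0283 TPM. Of 20 substrates 18 were detected, with the lowest value for the brain proteoglycan Bcan at 0.475 ± 0.0071 TPM. Of 14 transcription factors known to bind Mmp promoters 12 were detected, led by Sox9 at 181 ± 9.69, Ets2 at 94.8 ± 2.86 and Jun at 84.2 ± 0.438 TPM. Its partner Fos had 5.02 and 6.02 TPM, and Fosb was lowest with 0.18 TPM in each library.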

How the data were processed

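Total RNA-seq of 2 libraries of E13.5 mouse limb was used as deposited. Per the labels the assembly was mm10, and per the deposited text files the annotation was GENCODE M4. The aligner, the quantifier and any strand setting were not given in the sources used here. The deposited expected counts are estimated read numbers, in which a read shared by transcripts is split. The deposited TPM and FPKM values scale those counts by effective length, and the deposited percent per transcript gives its share of the gene's TPM, per the file headers. The authors' credibility bounds of TPM were copied as they stand. Rows with bare numbers as identifiers took 0.000226% and 0.000148% of counts and were left out.

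Ensembl identifiers were matched to symbols (98.0% found), positions and transcript types were taken from GENCODE M21 on the same assembly (97.9% of transcripts found), and promoters from RefSeq. TMM scaling and the common dispersion (intercept alone) were computed on rounded expected counts with edgeR 4.0.16 under R 4.3.3. DESeq2 1.42.0 gave other size factors. Other steps ran in Python 3.11.15 (pandas 2.3.3, numpy 2.4.6, matplotlib 3.10.9). Ratios between libraries used scaled counts + 0.5 and ratios between genes used TPM + 0.1. The dispersion and fold steps were tested on simulated data.

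Genes named in the text are all members detected in both libraries, the highest and lowest of each subfamily, genes of the pairs, members at 0, and the 3 highest and the lowest gene of each list, except items that are not reported here. Other members and genes beside them are named where a count or a result turns on them, and these were chosen after their values were seen. Members, pairs and lists were chosen with earlier results of these data known. Alternatives were the unit, the detection level, the amount added, the scaling, the count minimum, leaving out each library and, chosen after seeing the data, coding transcripts alone.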

Additional observations from a re-analysis of the deposited data

How the results depend on the processing

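The count of detected members ranged between 29 (at 2 TPM) and 44 (any count) under the alternatives tried, beside 35, and the count of pairs past the spread between 25 and 29, beside 25 of 31, or 22 of the 27 pairs with both genes detected. Members over 2-fold apart stayed at 0 under 5 of 6 alternatives and were 6 with no count minimum (Adamts13, Mmp24, Mmp3, Mmp12, Mmp13 and Mmp27, 11.1% of all genes), all with means under 10 counts. At 5 TPM, 15 of 16 members kept their leading transcript, since fewer were tested. By posterior mean shares 22 of 26 members did, where 91.6% of all such genes did. The summed level of all members, 1063 TPM, was 687 in FPKM, 80872 in expected counts and 909 TPM on coding transcripts, a change of unit or of transcripts counted, and 1048 to 1079 TPM with either library left out.

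Direction turned in 3 pairs that were within the spread in TPM: on expected counts, not divided by length, for Adamts5 over Adamts4 (0.72) and Adamts2 over Adamts3 (-0.27), both then past the spread, and Adamts16 over Adamts18 (-0.16, within it), on coding transcripts for Adamts2 over Adamts3 (-0.37) and Adamts16 over Adamts18 (-0.30), both within it, and between -0.051 and 0.11 with either library left out for Adamts16 over Adamts18. Timp2 over Timp3 on expected counts (0.11) and Adamts9 over Adamts20 on coding transcripts (0.76) were no longer past the spread. Mmp14 over Mmp2 was past it on expected counts (-0.38), without replicate 2 (-0.17) and on coding transcripts (-0.15, with a narrower spread), and Adamts5 over Adamts9 on expected counts (1.13) and coding transcripts (1.89). Mmp17 over Mmp25 was past it on expected counts, posterior mean TPM and with 0.01 TPM added. No paired analysis was possible because there is 1 group. Depth limits the members below 1 TPM, whose order rests on few counts.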

Other observations

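Of the 4 Timp genes, 3 share an arrangement with the synapsin genes, which code for proteins of synaptic vesicles. In GENCODE M21, Timp1 lies wholly inside Syn1, Timp3 inside Syn3 and Timp4 inside Syn2, each on the opposite strand. The inner gene was above its host in replicate 1 for all 3 and in replicate 2 for Timp1 and Timp3: Timp1 had 19.5 and 19.7 TPM against 0.195 ± 0.0495 TPM for Syn1, and Timp3 had 67.9 and 74.6 TPM against 2.49 ± 0.127 TPM for Syn3. Timp4 had 0.98 and 0.55 TPM against 0.52 and 0.75 TPM for Syn2, so that this pair changed order between the libraries. In all, 24 of the 51 members are overlapped by another gene, 11 of them on the opposite strand by a gene with counts in both libraries, and for these the reads of both strands cannot be told apart where strand was not used in counting.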
